A study of Saccharomyces cerevisiae with 12 samples.

Results

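The differences among 8 budding yeast strains that the submitters call homozygotes are described here. Each was derived from an evolved Saccharomyces cerevisiae strain with improved xylose use and was profiled on 1 Affymetrix array. They are the 8 of 12 samples titled homozygote 1 to homozygote 8. The other samples, from the parental and the evolved strain, were not used. All 8 cultures were started at an OD660 of 0.1 in YPX, a rich medium with 4% xylose, shaken at 200 rpm at 35 °C and harvested at 25 h, and 100 ng of total RNA was labelled with biotin. The labels give no genotype, no ploidy and no account of how the homozygotes were made. With 1 array a strain, the strain, its culture and its array cannot be told apart, so the values below are descriptions of 8 libraries with no test between strains.

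Saccharomyces cerevisiae does not grow well on xylose without engineering or selection, because the sugar must be reduced or isomerised to xylulose, phosphorylated by the xylulokinase Xks1 and passed through the pentose phosphate pathway. Xylose also gives weak glucose repression, so genes for other carbon sources can be read in its presence. Genes of zinc, iron, phosphate, thiamine and nitrogen supply in yeast are controlled by regulators that respond to the supply of the nutrient. Members of such a regulon can therefore move together between cultures.

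Of 10928 probe sets, 5498 matched 1 S. cerevisiae gene, and these stood for 5449 genes. The spread was described for the 5345 genes whose signal exceeded the array background on at least 2 of the 8 arrays, background being the 90th percentile of the 1746 probe sets designed for Schizosaccharomyces pombe, another yeast whose RNA was not on these arrays. It lay between 18.7 and 19.6 signal units, and the median gene lay 25.3 to 26.5 times above it. Signals are intensities in the deposited units, and differences are log2 units, where 1 is 2-fold. The median signal of the 15 described haploid-cell genes (receptors, pheromones and their pathway) lay between 24.0 for HO and 228 for GPA1, and that of 10 sporulation genes between 40.5 for SPO11 and 252 for SPS1. None of these 25 genes differed by 2-fold among the strains. In a set of this size that cannot be told apart from the share of all described genes, 2.68%. SPO19, a spore membrane protein gene outside this set, had a range of 1.54 log2 units. OSW1 and GAS2, also outside the set, had 2-fold ranges and fell in the same group of covarying genes as SPO19. The summed signal of the haploid genes lay between 1024 and 1230. Genes of the mitochondrial genome were not analysed here.

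Most genes differed little. The median SD over the 8 strains was 0.12 log2 units, with a 5th percentile of 0.050 and a 95th of 0.28, and 3997 genes (74.8%) had a whole range under 0.5. An SD of at least 0.5 was found for 26 genes (0.486% of those described), and 143 genes (2.68%) had a range of at least 2-fold, 12 of them at least 4-fold. Just inside that threshold the range was 1.00008 and just outside 0.999696. The spread was wider in dim genes, with a median SD of 0.15 in the 1337 genes of lowest mean signal and 0.088 in the 1336 of highest, which held 55 and 16 of the 143 genes. For scale, the 27 hybridisation control probe sets, whose RNA was added to each sample, had a median SD of 0.15. In 38 genes measured by several probe sets, the SD of the difference between a gene's probe sets had a median of 0.10.

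The strains did not contribute equally. Homozygote 6 lay at least 2-fold above the median of the other 7 strains for 16 genes (0.299% of those described) and below it for none (0.0%). Homozygote 8 lay at least 2-fold below the other 7 for 10 genes (0.187%) and above for 1 (0.0187%). Homozygote 5 was above for 10 genes (0.187%) and below for none (0.0%), homozygote 1 above for 4 (0.0748%) and below for none (0.0%), and homozygote 7 above for 3 (0.0561%) and below for 2 (0.0374%). Homozygotes 2, 3 and 4 were below for 2 (0.0374%), 2 (0.0374%) and 1 (0.0187%), and above for none (0.0%), 1 (0.0187%) and none (0.0%). The median absolute deviation of a strain from the gene medians was smallest in homozygote 4, at 0.046, and largest in homozygotes 6 and 8, at 0.10 and 0.088.

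Homozygotes 6 and 8 were opposite ends of one pattern. Of the 143 genes with a 2-fold range, 81 were highest in homozygote 6, 68 were lowest in homozygote 8, 51 were both, and 15 were the reverse of both. Without homozygote 6 the number of genes with a 2-fold range was 65, without homozygote 8 it was 87 and without both it was 43, whereas leaving out any other strain gave 131 to 141. The first principal component, which held 42.4% of the variance, put homozygote 6 at 13.2, homozygote 5 at 6.27 and homozygote 7 at 4.11 at its high end, and homozygotes 3 and 8 at -7.31 and -10.7 at its low end. Homozygotes 1 and 2 were the extremes of the second component (19.9% of the variance), at 8.03 and 6.96, opposite homozygotes 5 and 8 at -5.75 and -5.99.

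**Figure D1:**
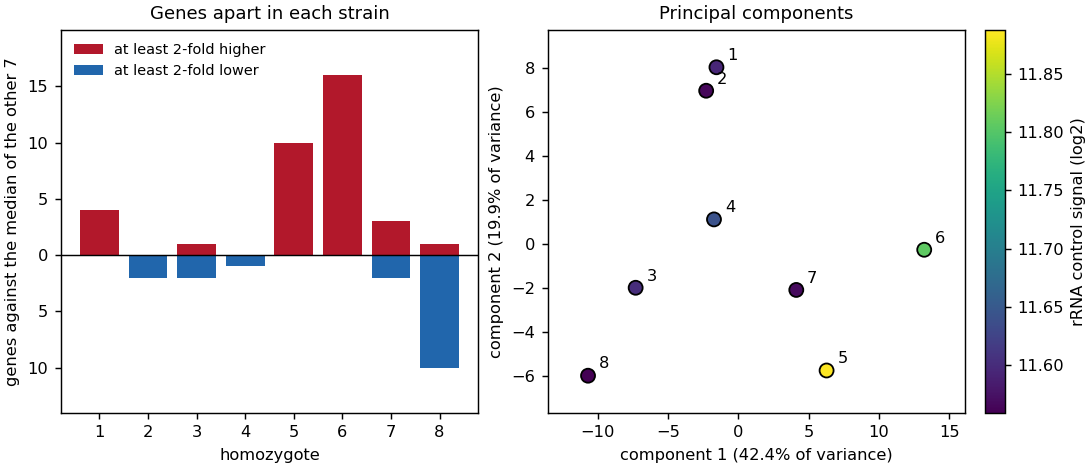
Left, the number of genes in each homozygote at least 2-fold above (bars upward) or below (bars downward) the median of the other 7; homozygote 6 has 16 above and homozygote 8 has 10 below. Right, each homozygote by its scores on the first and second principal components, coloured by the log2 signal of its ribosomal RNA control probe sets, which is highest in homozygotes 5 and 6.

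The ribosomal RNA control signal was highest in homozygotes 5 and 6, both at the high end of the first component. It was 11.89 and 11.81 log2 units in homozygotes 5 and 6, and between 11.56 and 11.64 in the other 6 strains. Its correlation with the first component over 8 arrays was r = 0.73 (exact permutation test, two-sided, p = 0.0462, 0.277 after Benjamini-Hochberg adjustment over 6 relations; rho = 0.69, p = 0.0694, adjusted 0.208), and r was 0.10 without homozygotes 5 and 6. In limma fits of each gene on this signal, 0 genes (0.0%) passed an adjusted p of 0.05, with 869 at an unadjusted p under 0.05, but 113 passed when homozygote 7 was left out. After each gene's straight-line relation to the signal was removed, 67 of the 143 genes kept a 2-fold range. Among the 20 genes of largest SD 19 kept it. The ratio of 3' to 5' control signal lay between 1.20 and 1.35 log2 units, and 0 genes (0.0%) passed against it, with 163 at an unadjusted p under 0.05.

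The second component had positive correlations with other array measures, but none of these passed the adjusted threshold. The bioB hybridisation control, a measure added after the data were seen, was highest in homozygotes 1 and 2, at 8.27 and 8.16 log2 units, and lay between 7.73 and 8.13 in the others. Its correlation with the second component was r = 0.83 (exact permutation test, two-sided, p = 0.0109, adjusted 0.0875 over 8 relations; rho = 0.76, p = 0.0368, adjusted 0.147), and r was 0.64 without homozygotes 1 and 5. The 3' to 5' ratio had r = 0.56 with it (exact permutation p = 0.136, adjusted 0.345 over 6 relations; rho = 0.76, p = 0.0368, adjusted 0.208), and r was 0.64 without homozygotes 1 and 3. Of the listed galactose genes, GAL10, GAL1, GAL7, GAL2 and GCY1 were highest in homozygote 1, which had the highest of both measures. The part of these measures in that result was not tested.

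**Figure D2:**
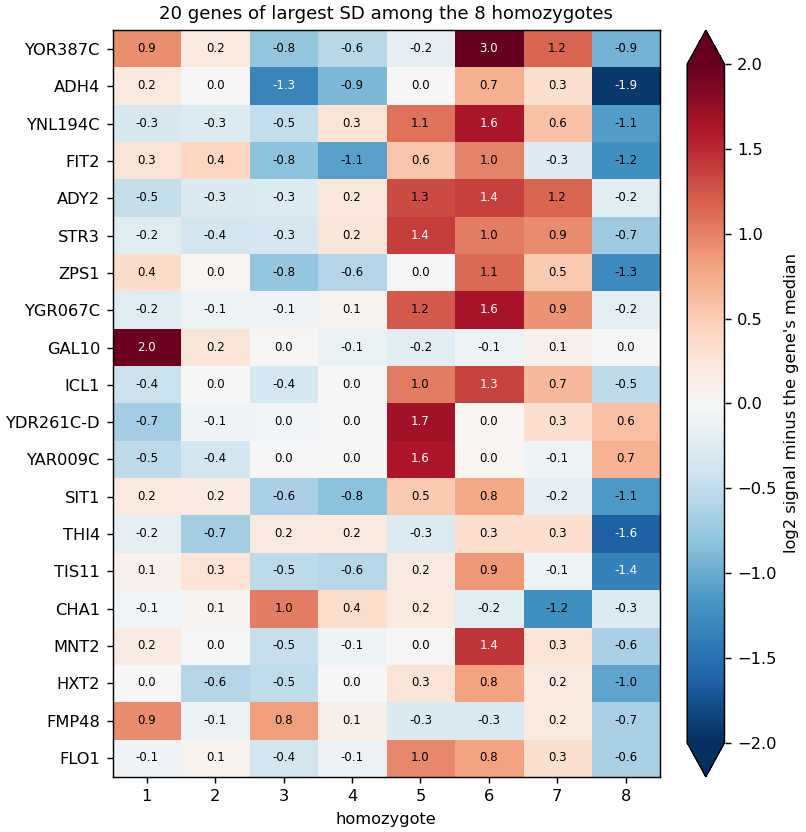
Log2 signal of the 20 genes of largest SD in each homozygote minus the gene's median over the 8, printed in each cell (colour ends at 2 units either way). Columns 5 and 6 are mostly above the median and column 8 mostly below, while GAL10 is high in column 1 alone, the Ty genes YDR261C-D and YAR009C are highest in column 5, and CHA1 is high in column 3 and low in column 7.

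The 2 genes of largest SD were zinc genes. YOR387C, an uncharacterised gene known to be induced at low zinc, had the largest SD of any described gene (1.30). Its signals in homozygotes 1 to 8 were 199, 120, 60.4, 70.9, 91.7, 811, 234 and 54.3. Homozygote 6 was thus far above the rest, and homozygote 8 was 14.9-fold below it. Without homozygote 6 the SD was 0.83.

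ADH4, an alcohol dehydrogenase made when zinc is scarce, had signals of 6254, 5484, 2207, 2959, 5493, 8940, 6927 and 1439 in the same order (SD 0.91). The cell-surface protein gene ZPS1 had 4038, 3219, 1831, 2088, 3073, 6902, 4518 and 1295 (SD 0.78). ZAP1, which encodes the zinc-sensing activator of these genes and activates its own promoter, had 249, 251, 167, 190, 221, 396, 238 and 157 (SD 0.42). In each of the 3, homozygote 6 was highest, homozygote 8 lowest, and homozygotes 3 and 4 were the next lowest.

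These 4 were the genes with a 2-fold range among the 15 zinc-responsive genes listed (26.7%, against 2.68% of all described genes), and the median SD of the 15 was 0.23 against 0.12 over all genes. The other zinc genes did not all follow ZAP1. Of the 14 others, YOR387C, ADH4 and ZPS1 included, 9 correlated with ZAP1 over the 8 strains at r of at least 0.7 and 3 at -0.7 or less, against 10.6% and 10.8% of all described genes. ZRT3, the exporter of zinc from the vacuole, had r = 0.96 and signals between 977 in homozygote 3 and 1893 in homozygote 6. The high-affinity importer gene ZRT1 also had a positive correlation with ZAP1, 0.89, but a range of only 0.32, from 4307 in homozygote 8 to 5394 in homozygote 6.

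The 3 genes at -0.7 or less were ZRT2, IZH1 and IZH4, named after their values were seen. IZH2 had r = -0.42 and FET4 0.10. ZRT2, a low-affinity importer that Zap1 is known to repress under severe zinc shortage, had signals of 758, 815, 1012, 999, 865, 717, 728 and 1069 in homozygotes 1 to 8 and r = -0.88 with ZAP1. Homozygote 8 was highest and homozygote 6 lowest, the mirror of ADH4. IZH4, a membrane protein of zinc homeostasis, lay between 707 in homozygote 2 and 1344 in homozygote 8 (r = -0.71), and IZH1 had r = -0.90.

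**Figure D3:**
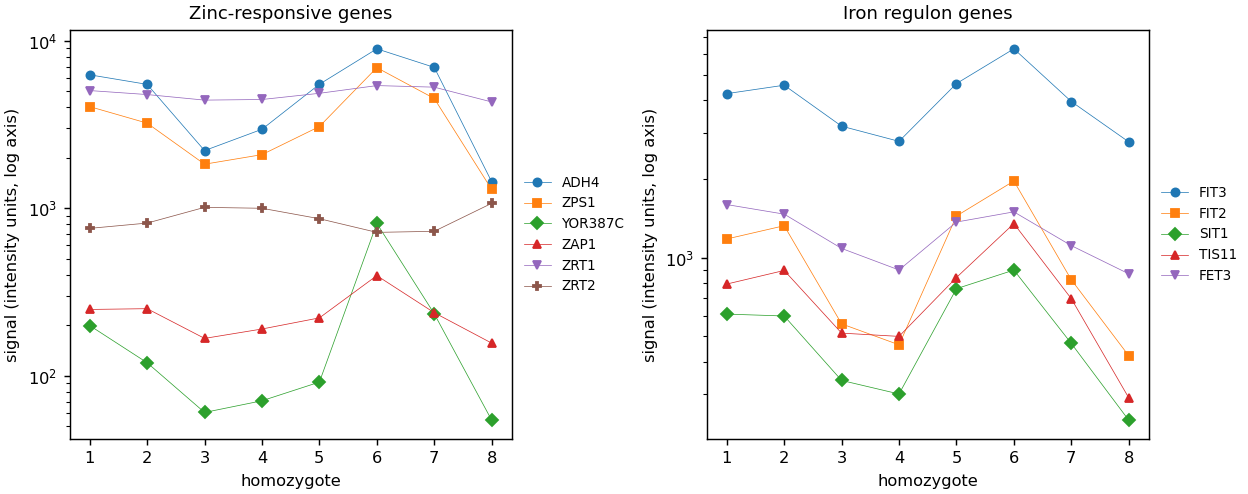
Signal on a log axis (intensity units) of 6 zinc-responsive genes (left) and 5 iron regulon genes (right) in each homozygote; 1 point is 1 array, and the thin lines only link the points of a gene. In both panels homozygote 6 is high and homozygote 8 low, except for ZRT2, which is highest in homozygote 8, and ZRT1, which is nearly level; homozygotes 1, 2 and 5 sit above 3 and 4 for the iron genes.

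Iron regulon genes had a similar but not identical order. This regulon is switched on by Aft1 and Aft2 when cells are short of iron. FIT2, a cell wall mannoprotein that holds siderophore-bound iron, had signals of 1180, 1326, 559, 465, 1445, 1966, 824 and 422 in homozygotes 1 to 8 (SD 0.83). SIT1, a siderophore transporter, had 609, 599, 340, 301, 762, 897, 470 and 239 (SD 0.67). For both genes homozygote 6 was highest, homozygote 5 next and homozygote 8 lowest.

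TIS11, whose protein directs the decay of messages of iron-using enzymes, had 793, 894, 515, 500, 840, 1351, 698 and 291 (SD 0.67). FIT3, a relative of FIT2, lay between 2776 in homozygote 8 and 6299 in homozygote 6 (SD 0.41). These genes and the siderophore transporter ARN2 were the 5 of 30 iron genes with a 2-fold range (16.7%, against 2.68% of all genes). The median SD of the list was 0.18.

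Over the 8 strains 13 of the other 29 iron genes correlated with FIT2 at r of at least 0.7, against 7.47% of all genes, and none at -0.7 or less. SIT1 (0.99), FIT3 (0.98), TIS11 (0.94) and the ferroxidase gene FET3 (0.93) were closest among those named here. The partner of Fet3 in high-affinity uptake, FTR1, had r = 0.13, and the reductase genes FRE3 and FRE1 had -0.03 and -0.37, values picked after they were seen. The zinc and iron genes shared their extremes in homozygotes 6 and 8 but differed in homozygote 5, which was the second highest strain for FIT2 and SIT1 and stood below homozygotes 6, 7 and 1 for ADH4, ZPS1 and YOR387C.

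Some genes for growth on non-fermentable carbon were highest in homozygotes 5, 6 and 7. ICL1, isocitrate lyase of the glyoxylate cycle, had signals of 380, 514, 400, 512, 1049, 1308, 807 and 356 in homozygotes 1 to 8 (SD 0.71). ADY2, an acetate transporter, had 176, 201, 203, 287, 605, 637, 554 and 211 (SD 0.80). Homozygotes 5, 6 and 7 were at or above 807 for ICL1 and 554 for ADY2, and the next strains were at 514 and 287. ADY2 was the only gene of 2-fold range whose widest gap between neighbouring strains took up at least 0.5 of the whole range with at least 2 strains on either side.

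YGR067C, a zinc finger gene related to the regulator ADR1, had 41.2, 45.6, 46.5, 51.0, 113, 152, 91.1 and 42.6 (SD 0.74), with the same 3 strains above the others. PCK1 and FBP1, the enzymes specific to gluconeogenesis, varied less and did not single out homozygote 7. PCK1 had 1587, 1201, 1773, 1675, 2525, 2836, 1463 and 1039 (SD 0.49), so that homozygotes 5 and 6 were highest and homozygotes 8 and 2 lowest. FBP1 lay between 1093 in homozygote 2 and 2491 in homozygote 6, and the lactate transporter JEN1 between 880 in homozygote 8 and 1814 in homozygote 6.

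ADY2 and JEN1 were the 2 of 25 genes of the ethanol, acetate and glycerol list with a 2-fold range (8%, against 2.68% of all genes). Of the 24 genes beside ADY2, 4 had r of at least 0.7 with it and 2 had -0.7 or less, the glycerol phosphatase genes GPP1 (-0.88) and GPP2 (-0.80), against 6.70% and 15.2% of all genes. The median pairwise r of that list was 0.10.

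Of the 17 glyoxylate and gluconeogenesis genes listed, 3 (ICL1, PCK1 and FBP1) had a 2-fold range (17.6%, against 2.68% of all genes), and the list's median SD was 0.23. Of the other 16, 11 correlated with ICL1 at r of at least 0.7, against 8.63% of all genes, among them REG2 (0.96), the carnitine acetyltransferase gene YAT2 (0.96), the succinate-fumarate carrier gene SFC1 (0.92) and the malate synthase gene MLS1 (0.82). The 2 genes at -0.7 or less were AGX1, for glycine synthesis from glyoxylate (r = -0.91), and DAL7, a malate synthase gene of allantoin use (-0.85), against 16.2% of all genes. The 2 strains highest for these genes were those with the highest ribosomal RNA control signal. With the straight-line relation to that signal removed, ICL1 kept a range of 1.21 and ADY2 of 1.78, while those of PCK1 and FBP1 were 0.62 and 0.63.

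The sulfur gene STR3, a cystathionine lyase of methionine synthesis, shared the high signal in homozygotes 5, 6 and 7. It had signals of 597, 553, 561, 844, 1847, 1449, 1363 and 427 (SD 0.78), and homozygote 5, not 6, was highest. The methionine permease gene MUP1 (r = 0.87 with STR3) lay between 969 in homozygote 8 and 1555 in homozygote 5, and the S-methylmethionine permease gene MMP1 (r = 0.95) between 689 and 1338 in the same strains. Of the other 36 sulfur genes, 9 had r of at least 0.7 with STR3 and 1, MET31 (-0.94), had -0.7 or less, against 6.81% and 14.7% of all genes. CYS3 (-0.66) was the only other gene of the list with a negative value. Over the whole list the median deviation from the gene medians was highest in homozygote 7, at 0.23, and lowest in homozygote 2, at -0.21.

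Transporters of sugars varied among themselves. HXT2, a glucose transporter of high affinity, had signals of 262, 174, 183, 257, 310, 454, 297 and 126 in homozygotes 1 to 8 (SD 0.58). HXT5, expressed in slow growth, lay between 123 in homozygote 8 and 278 in homozygote 6. For HXT17, whose probe set can also detect close relatives, the range ran from 694 to 1767 in the same strains. Together 4 of 14 hexose transporter genes had a 2-fold range (28.6%, against 2.68% of all genes), and the median pairwise r of the list was 0.09.

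Genes that carry xylose into central metabolism differed by less than 2-fold. The xylulokinase gene XKS1 lay between 2951 in homozygote 8 and 4130 in homozygote 6 (SD 0.18). GRE3, an aldose reductase that acts on xylose, lay between 1135 and 1525 (SD 0.15). Both SDs exceeded the median over all genes, 0.12. TAL1 and TKL1, the transaldolase and transketolase genes, had SDs of 0.04 and 0.06, and ZWF1 and GND1 of the oxidative branch 0.08 and 0.12. None of the 10 xylose and polyol genes had a 2-fold range, which in so few genes cannot be told apart from the 2.68% of all genes. Their median SD was 0.15.

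Of 13 pentose phosphate genes SOL4 alone (7.69%, against 2.68% of all genes) had a 2-fold range, from 75.6 in homozygote 8 to 161 in homozygote 2. The lists of smallest spread were glycolysis and the tricarboxylic acid cycle, with median SDs of 0.05 each. The respiratory chain and the cytosolic ribosomal proteins had 0.07 each and the proteasome 0.08. None of the genes in these 5 lists had a 2-fold range, against 2.68% of all genes.

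**Figure D4:**
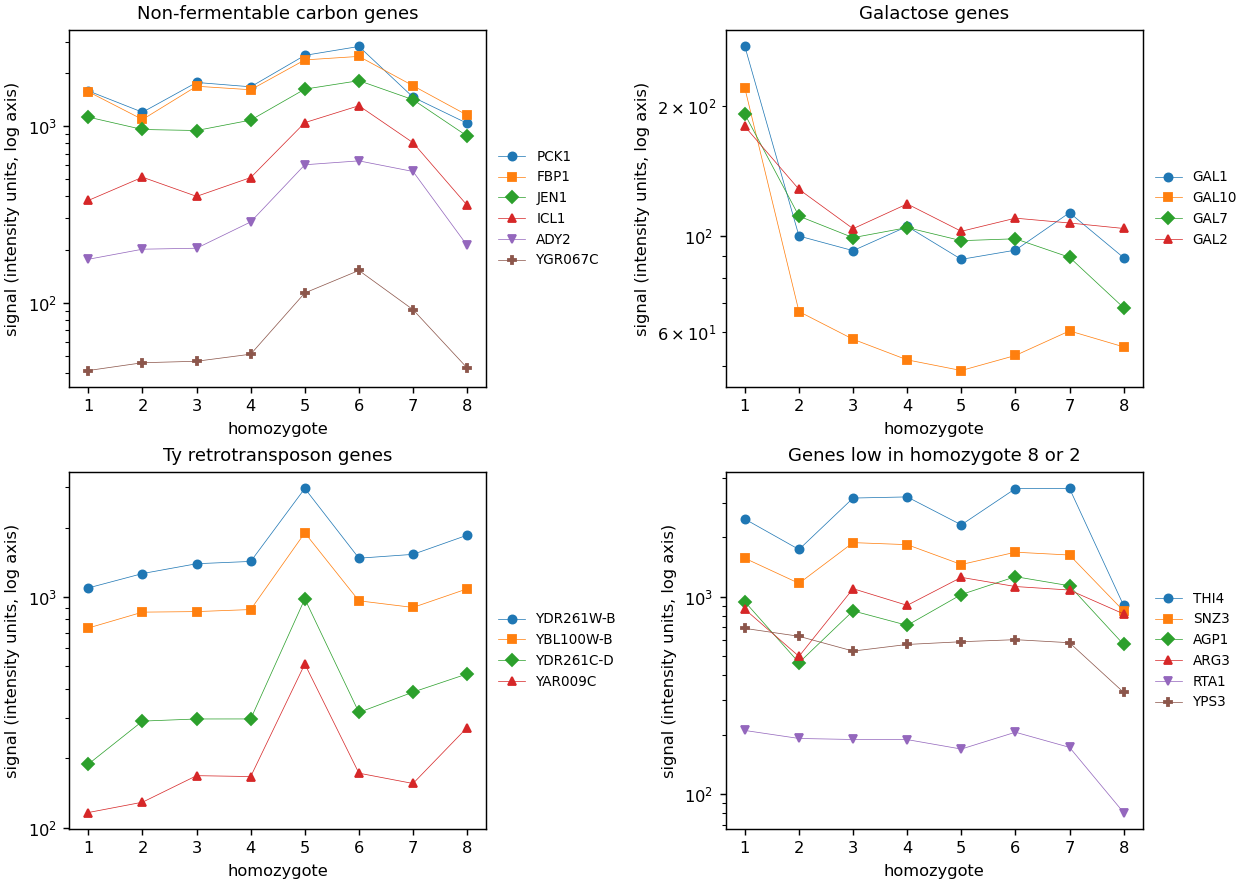
Signal on a log axis (intensity units) in each homozygote for genes of non-fermentable carbon use, the galactose genes, Ty retrotransposon genes and genes lowest in homozygote 8 or 2; 1 point is 1 array, and the thin lines only link the points of a gene. Homozygotes 5 and 6 are highest in the first panel, homozygote 1 is highest in the second and homozygote 5 in the third, and homozygote 8 is lowest for THI4, SNZ3, RTA1 and YPS3 in the last.

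Among the 8 galactose genes listed, homozygote 1 was highest for GAL10, GAL1, GAL7 and GAL2, each with a range of at least 0.81. It was also highest for GCY1, at 2446, but the range of that gene was only 0.23. GAL10, the epimerase of galactose use, had a signal of 220 in homozygote 1 and between 48.8 and 66.8 in the other 7 (SD 0.71, and 0.15 without homozygote 1). GAL1, the galactokinase, had 275 against 88.3 to 113. GAL7, the transferase, had 192 against 68.2 to 111.

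The galactose transporter gene GAL2 had 179 in homozygote 1 against 103 to 128 in the other strains, a range of 0.81. GAL10, GAL1 and GAL7 were the 3 of 8 listed galactose genes with a 2-fold range (37.5%, against 2.68% of all genes). The other 4 listed, GCY1, GAL80, GAL3 and PGM2, had r with GAL10 of 0.64, 0.49, 0.37 and 0.27 and ranges of 0.23, 0.23, 0.57 and 0.52. Without homozygote 1 the SDs of GAL1, GAL7 and GAL2 were 0.13, 0.23 and 0.12.

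Homozygote 5 was highest for 4 retrotransposon genes, picked for their spread and with no list of such genes behind them. YAR009C, from a Ty1 element, had signals of 116, 129, 168, 166, 513, 172, 155 and 272 in homozygotes 1 to 8 (SD 0.69, and 0.39 without homozygote 5). YDR261C-D had 189, 290, 296, 296, 983, 316, 387 and 464 (SD 0.70, and 0.40 without homozygote 5). Homozygote 5 was highest and homozygote 8 next for both, and homozygote 1 was lowest.

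YDR261W-B and YBL100W-B lay between 1097 and 2964 and between 735 and 1901, with the same lowest and highest strains, and had SDs of 0.24 and 0.17 without homozygote 5. Ty elements have many near-identical copies, so these probe sets cannot be assigned to 1 copy and the 4 are not independent measurements. The same group of covarying genes held the polyamine exporter gene TPO3, between 25.6 and 69.9, and the spindle gene SLK19, between 74.6 and 153. The bioB control signal was lowest in homozygote 5, at 7.73 log2 units, and highest in homozygote 1, at 8.27. In limma fits on that signal YDR261C-D had a slope of -3.23 and YDR261W-B of -2.01 (unadjusted p = 0.00055 and 0.00061, adjusted 0.186 for both). The part of that signal in the Ty values was not tested.

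Homozygote 8 was lowest for several thiamine genes. THI4, which makes the thiazole part of thiamine, had signals of 2473, 1734, 3160, 3202, 2311, 3528, 3534 and 902 in homozygotes 1 to 8 (SD 0.67, and 0.38 without homozygote 8). SNZ3, for vitamin B6 synthesis, lay between 847 and 1879, THI13 between 2237 and 4356 and SNO3 between 292 and 548, all lowest in homozygote 8 and next lowest in homozygote 2. Of the 19 other genes of the thiamine and vitamin B6 list, 7 correlated with THI4 at r of at least 0.7, against 3.61% of all genes. SNZ3, THI13 and their relatives are near-identical copies, so signal may be shared between them.

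Some genes were low in homozygote 8 alone. RTA1, a membrane protein known for aminocholesterol resistance, had a signal of 80.6 there and 169 to 210 in the other 7 strains (SD 0.45, and 0.12 without homozygote 8). YPS3, a cell surface protease, had 328 against 530 to 691 (SD 0.33, and 0.12 without it).

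Homozygote 2 was lowest for several nitrogen genes. AGP1, a broad amino acid permease, had signals of 943, 463, 847, 716, 1025, 1263, 1136 and 573 (SD 0.50). GDH1, the glutamate dehydrogenase that fixes ammonium (r = 0.97 with AGP1), lay between 1360 in homozygote 2 and 2656 in homozygote 6. The ammonium permease gene MEP3 lay between 107 in homozygote 2 and 221 in homozygote 6, and MEP1 between 225 in homozygote 8 and 450 in homozygote 6.

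ARG3, of arginine synthesis, had 498 in homozygote 2 and 818 to 1253 in the others (SD 0.42, and 0.23 without homozygote 2). Of the 25 nitrogen-responsive genes listed beside AGP1, 6 had r of at least 0.7 with it and 2 had -0.7 or less, against 3.63% and 9.02% of all genes. A 2-fold range was found for 6 of the 26 (23.1%, against 2.68% of all genes), but these did not share 1 pattern. AGP1, MEP1 and MEP3 grouped together, while GAP1, PUT1 and PUT4 fell in the large group of covarying genes described below. The median pairwise r of the list was -0.01.

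Homozygote 7 was an extreme for CHA1 and some phosphate genes. CHA1, the serine deaminase induced by serine and threonine, had signals of 148, 161, 315, 198, 176, 130, 65.9 and 128, so that homozygote 3 was highest and homozygote 7 lowest (SD 0.64). HSP30, a membrane stress protein, lay between 253 in homozygote 7 and 756 in homozygote 3. The phosphate transporter gene PHO84 was highest in homozygote 7 (3203) and lowest in homozygote 2 (1534), as was SPL2, a regulator of phosphate uptake (886 and 425, SD 0.32, and 0.19 without homozygote 7). PHO5, the secreted acid phosphatase, was lowest in homozygote 2 (571), and homozygotes 6 and 7 were level at 1215 and 1205.

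PHO89, a sodium-coupled phosphate transporter and the phosphate gene of largest SD (0.48), had signals of 379, 324, 314, 359, 372, 595, 615 and 226. Homozygotes 7 and 6 were highest and homozygote 8 lowest, and the gene fell in the large group of covarying genes described next. These were the 4 of 20 phosphate genes with a 2-fold range (20%, against 2.68% of all genes).

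Clustering of the 143 genes with a 2-fold range by their correlation over the 8 strains put 71 in 1 group and 18 in another. The average-linkage tree was divided at a mean distance (1 minus r) of 0.3, so that membership describes how the genes were grouped and is not a test. The 71 genes had a median pairwise r of 0.79 and a mean deviation of 0.76 in homozygote 6, 0.27 in homozygote 5, -0.39 in homozygote 3 and -0.59 in homozygote 8. They held all 5 iron, all 4 zinc and all 3 gluconeogenic genes of 2-fold range, with ADY2, JEN1, HXT2, HXT5, STR3, the flocculin genes FLO1 and FLO9 and the amino acid permease gene GAP1. Of the 71 genes, 41 were in none of the lists, and 25 kept a 2-fold range after removal of the relation to the ribosomal RNA signal.

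The group of 18 ran the other way, with a mean deviation of 0.52 in homozygote 8 and -0.58 in homozygote 6. The correlation of the means of the groups was -0.98. The group of 18 held 3 genes from the ribosome assembly list, SSF1, DBP8 and LCP5, and 15 genes that were in none of the lists. SSF1, for the large ribosomal subunit, had signals of 440, 433, 539, 394, 389, 284, 419 and 717 in homozygotes 1 to 8. MSI1, a chromatin assembly factor, lay between 153 in homozygote 6 and 314 in homozygote 3, and SPO19, a spore membrane protein gene, between 21.5 and 62.4, near background. Of the 18 genes, 1 kept a 2-fold range after the relation to the ribosomal RNA signal was removed.

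The shift was seen across ribosome assembly genes at smaller size. The 78 listed genes had a median deviation of 0.22 in homozygote 8, -0.18 in homozygote 6 and between -0.04 and 0.08 in the other strains, with a median pairwise r of 0.68. Of the 77 genes beside SSF1, 54 correlated with it at r of at least 0.7, against 12.9% of all genes, and none at -0.7 or less. A 2-fold range was found for 3 of the 78 (3.85%, near the 2.68% of all genes). The cytosolic ribosomal protein genes had median deviations between -0.05 and 0.04 in every strain.

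Genes with a 2-fold range were more frequent beside one another and near chromosome ends than elsewhere. Among the described genes in order along each chromosome, 285 neighbours of genes with a 2-fold range were counted, and 42 of these (14.7%) had a 2-fold range themselves, against 2.68% of all genes. The 42 are 21 neighbouring pairs counted from both sides. In 16 of the 21 pairs r was at least 0.7, the median over all 5329 neighbouring pairs being 0.18. The 16 include the Ty genes YDR261W-B and YDR261C-D (r = 0.99), which are not independent measurements, and the relatives FIT2 and FIT3 (0.98). Of the 320 genes among the 10 described genes nearest an end, 31 (9.69%) had a 2-fold range, and 112 of the other 5025 (2.23%).

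On chromosome VII, VEL1, MNT2 and ADH4 were adjacent among the described genes and all had a 2-fold range, while their neighbour ZRT1 did not. VEL1 lay near background, between 19.2 in homozygote 4, the background of that array, and 40.7 in homozygote 6. MNT2, a mannosyltransferase gene, had signals of 55.2, 48.7, 35.8, 45.9, 50.4, 134, 60.1 and 31.6 (SD 0.63, and 0.33 without homozygote 6). On chromosome XV, FIT2, FIT3, YOR385W, PHR1, YOR387C and FDH1 formed a run of 6. FDH1, a formate dehydrogenase gene, was high in homozygote 6 alone, at 541 against 164 to 246 (SD 0.54, and 0.23 without it), whereas PHR1, the DNA photolyase gene, lay between 80.8 in homozygote 8 and 189 in homozygote 6. Along the run the r of neighbours was 0.98, 0.61, 0.85, 0.77 and 0.74, and on chromosome VII 0.82 and 0.83.

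**Figure D5:**
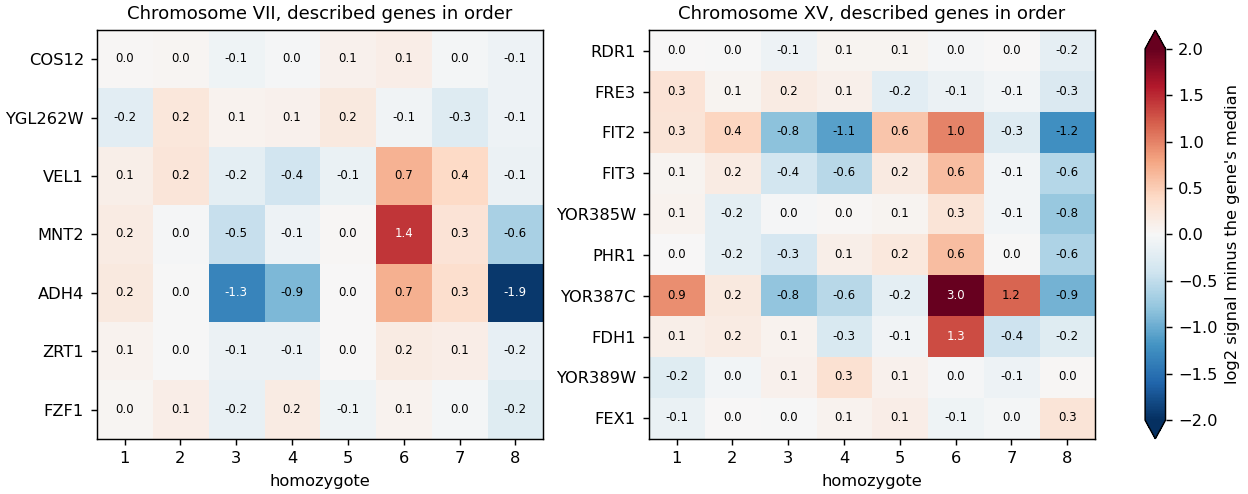
Log2 signal in each homozygote minus the gene's median over the 8 (printed in each cell, colour ends at 2 units) for described genes in their order on chromosome VII from COS12 to FZF1 and on chromosome XV from RDR1 to FEX1. VEL1, MNT2 and ADH4 on VII and the 6 genes from FIT2 to FDH1 on XV have a 2-fold range, and the flanking genes do not. The signals of VEL1 lie near background.

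On chromosome XIV, YNL194C, its neighbour YNL193W and the chitin synthase gene CHS1 also ran together. YNL194C, a cell cortex protein gene, had signals of 93.9, 96.5, 83.5, 142, 248, 365, 175 and 53.7 (SD 0.90), highest in homozygotes 6 and 5 and lowest in homozygote 8. YNL193W lay between 99.9 and 249 (SD 0.43, and 0.28 without homozygote 6), with r = 0.96 to YNL194C.

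Shifts of whole chromosomes were small. The median deviation of the genes of a chromosome lay between -0.036 and 0.031 in all 8 strains and 16 chromosomes. Sliding windows of 15 neighbouring genes gave 40968 medians, 1 for each window in each strain, and 6 of these deviated by at least 0.3. All 6 were in homozygote 8 and came from overlapping windows over 1 stretch of chromosome XII. In the window from YPS1 to NHA1 the median was -0.36, and 12 genes lay lower and 3 higher, from -1.35 to 0.35, so that the shift was not uniform over the window.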

How the data were processed

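Total RNA from 8 cultures was measured on Affymetrix arrays designed for both S. cerevisiae and S. pombe. The deposited values are intensities on a linear scale. MAS5 is named in the submitters' processing notes, without its version or role, and any scaling between arrays is not stated there. The mean over each array without the outermost 2% at either end lay between 453 and 455, so the arrays had been brought to a common level. No array was scaled again.

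Probe sets were named through GEO's platform annotation, and gene names and order along the chromosomes come from the RefSeq table. Of several probe sets of a gene the brightest was kept, those specific to the gene going first, signals under background were raised to it, and log2 was taken. SD and range are over 8 strains with 1 array each, and the number of arrays limits their precision. The groups come from average linkage on 1 minus Pearson's r (scipy 1.17.1), and genes were set against the array measures with limma 3.58.1 in R 4.3.3 (two-sided, Benjamini-Hochberg adjustment). The fits and the grouping were tested on simulated data. Array measures were set against the components by an exact permutation test over 40320 orders. The labels give no batch, slide or scan date.

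The strains, gene lists and alternatives were chosen with earlier results of these data known. Genes were named by rule: the 20 of largest SD, the 3 farthest above and below in each strain, the 5 nearest each large group's mean, up to 4 of largest SD in each list, runs of neighbours, and 6 genes of xylose entry and the pentose phosphate pathway (GND1, ZWF1, TKL1, TAL1, GRE3, XKS1). Other genes were chosen after their values were seen, as were ZRT1, ZRT2, ZRT3, IZH1, IZH4, FTR1, FRE1, FRE3 and those given for their correlation with another gene. A further array measure, the bioB hybridisation control, was added after the data were seen.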

Additional observations from a re-analysis of the deposited data

Results flagged for a closer look

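In 17 of the 202 genes named by rule and the 4 array measures (8.25%), the highest or lowest of the 8 strains was separated from its nearest neighbour by over 0.526 of the whole range. In groups not chosen for their values, chance gives such a gap in about 1 in 20. Many of these genes were named because they vary, and some because 1 strain lay far from the others. Several also vary together, so the 8.25% cannot be set against that share.

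Homozygote 1 was the strain apart for the galactose genes, with a gap of 0.791 of the range for GAL10, 0.781 for GAL1, 0.6 for GAL2 and 0.527 for GAL7. Homozygote 8 was lowest for RTA1 (gap 0.773), YPS3 (0.646) and the cell wall gene TIR3 (0.611), which had a signal of 659 there and 973 to 1248 in the other strains. Homozygote 6 was highest for VBA3 (0.699), whose probe set can detect a relative and whose signals lay near background, GRE2 (0.616), MNT2 (0.556), YJR096W (0.544) and GAP1 (0.534). GRE2, a stress-induced reductase gene, had 229 in homozygote 6 and 112 to 147 elsewhere, and YJR096W, an aldo-keto reductase gene that can act on xylose, had 1768 against 1230 to 1451. Homozygote 6 was lowest for BNA2 (0.558), of NAD synthesis, at 1578 against 1924 to 2252.

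Homozygote 3 was lowest for 2 genes of sugar breakdown whose range was small. GLK1, a glucokinase, had 5693 there against 6680 to 7402 (gap 0.609), and CIT1, citrate synthase, had 4042 against 4590 to 5028 (0.582). ARG3 was lowest in homozygote 2 (0.537) and the Ty gene YBL100W-B highest in homozygote 5 (0.588).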

How the results depend on the processing

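No paired analysis was possible because each homozygote is a strain of its own with 1 array and no groups were compared. The median SD lay between 0.116 and 0.126 whichever strain was left out. The number of genes with a 2-fold range was 65 to 141 with 1 strain left out (65 without homozygote 6, 87 without homozygote 8), 43 without both, and 68 after the relation to the ribosomal RNA signal was removed. The number with an SD of at least 0.5 was 16 among genes above 4 times background on all arrays, and 20 to 30 with 1 strain left out. The largest group of covarying genes depended most on the settings. It held 41 genes after quantile normalization, 45 above 4 times background, 27 with the tree divided at 0.2, 40 with Spearman's rho and 19 after removal of the ribosomal RNA relation. With 1 strain left out it held 15 to 69 genes (46 without homozygote 3, 15 without homozygote 6, 28 without homozygote 8), and 15 without homozygotes 6 and 8, an alternative added after seeing the data. The cause was not tested.

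The correlation of the first component with the 3' to 5' ratio was -0.11 over 8 arrays and 0.53 without homozygotes 1 and 3, and that of the second component with the ribosomal RNA signal was -0.36 and 0.17 without homozygotes 5 and 6. None of these passed the adjusted threshold. In limma the number of genes called against the ribosomal RNA signal was 0 to 113 with 1 strain left out (113 without homozygote 7). Against the bioB signal it was 0 over 8 arrays, with 824 at an unadjusted p under 0.05, and 0 to 24 with 1 strain left out (24 without homozygote 8). For 116 genes named in the text, none of 464 SDs under other scalings, floors or probe sets moved by over 1.5 times, while 31 genes moved by that much without 1 strain.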

Other observations

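The 5 genes measured by different probe sets that had an SD of at least 0.2 in both gave values with r between 0.93 and 0.98 between their probe sets over the 8 strains. In all 38 genes with several probe sets the median r was 0.62.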
